A study of Arabidopsis thaliana with 4 samples.

Results

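Transcripts of 4 nuclear genes for chloroplast proteins of carbon fixation and ATP synthesis were followed in Arabidopsis thaliana shoots after abscisic acid (ABA): RCA (AT2G39730), SBPASE (AT3G55800), PRK (AT1G32060) and ATPC1 (AT4G04640). They were chosen by gene name among 11371 named genes, with earlier results of these data known. Each gene was represented by its probe set with the highest mean over all arrays. A probe set is a group of short probes that together report on a transcript. RCA had 3 probe sets and each of the others had 1, so the 4 genes held 6 of the 19371 probe sets tested. All 6 read above the noise level on every array and would pass a filter on dim probe sets, since they rank between 8 and 218 by mean intensity.

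The shoots came from wild-type Col-0 seedlings raised axenically for 14 days in constant (24 h) light on upright plates. Seedlings were submerged for 5 min either in 100 uM ABA or in a mock solution. The ABA was made up in basal salts with 0.1% Tween 20 (a wetting agent). The mock solution, labelled MS-Tween, also held 0.1% Tween 20. Both groups were collected 4 h later without their roots. Each group had 2 biological replicates, each a pool of 20 to 24 shoots on its own array. A whole shoot pools leaf, stem and meristem cells, and in such bulk samples fewer cells of a type and less RNA per cell cannot be told apart.

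The Calvin cycle fixes carbon dioxide in the chloroplast stroma with ATP and reducing power made by the thylakoid light reactions. Several of its enzymes, and the chloroplast ATP synthase, are switched on in light when thioredoxins reduce pairs of cysteines in them, so that fixation and ATP production run together in illuminated leaves. ABA is the hormone of drought responses, which closes stomata and changes the expression of many genes. Rubisco activase, encoded by RCA, uses ATP to remove inhibitory sugar phosphates from Rubisco, the enzyme that fixes carbon dioxide. SBPASE encodes sedoheptulose-1,7-bisphosphatase, which works in the regeneration of the acceptor for carbon dioxide. PRK encodes phosphoribulokinase, which completes that regeneration by phosphorylating ribulose 5-phosphate. ATPC1 encodes the gamma subunit, the rotating shaft of the chloroplast ATP synthase, and carries the cysteines through which thioredoxin acts on this complex.

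Arrays of the same treatment correlated at r = 0.991 across probe sets in both groups, which describes the arrays and is no test, as probe sets are not independent replicates. The treatment was visible in the ABA-induced genes looked for, of which 3 of 9 were named here: KIN1, COR15A and LEA4-5 rose by 3.68 to 5.38 on the log2 scale. Probe sets for photosystem and light-harvesting genes, which mark green shoot tissue, were bright on all arrays. Of 12 root markers, 2 were named here. The root hair gene EXPA7 read at most 1.75 on any array, below the noise level of each array (7.54 to 8.76 intensity units). PYK10, a root and hypocotyl gene for a beta-glucosidase, read 320.5 and 279.7 on the mock arrays and 104 and 120 on the ABA arrays. The summed level of these root markers was thus 280 to 321 in mock and 106 to 122 in ABA shoots, nearly all of it PYK10. PYK10 was lower after ABA like the 4 genes below, and its part in their changes was not tested. EXPA7 was called higher after ABA (log2 change 0.12, limma adjusted p = 0.0491), at readings below the noise level.

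All 4 genes were lower after ABA on the scale as deposited. RCA, SBPASE and PRK lost about the same share of their signal, with ABA means at 59.8%, 59.6% and 60.3% of the mock means, and ATPC1 lost less, at 74.0%. The comparison asked which shoot transcripts differ after ABA, and it was tested with limma on log2(intensity + 16), with Benjamini-Hochberg adjustment over all 19371 probe sets and a threshold of 0.05. By this test 4 of the 4 genes fell, which is no independent support, as they were chosen with earlier results of these data known. Across the arrays 19.6% of probe sets were called lower and 3.97% higher, and among the brightest 1000 probe sets, where these genes lie, 35.2% were called lower. Both ABA arrays lay below both mock arrays for 50.8% of all probe sets and 75.1% of the brightest 1000.

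RCA read 2047 and 2171 on the mock arrays and 1289 and 1231 on the ABA arrays. The groups did not overlap, and each possible pairing of an ABA with a mock array gave an ABA signal of 56.7% to 63.0% of mock. Its mean went from 2109 ± 87.7 to 1259.9 ± 41.5 (SD, n = 2 arrays each), a log2 change of -0.74 (SE 0.049, limma adjusted p = 0.0201).

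The other RCA probe sets give a view of the same gene from other probes. The second set read 2113 and 2223 in mock and 1137 and 1207 after ABA (a change, in log2, of -0.88, SE 0.051, limma adjusted p = 0.0184). It was the brightest of all 19371 probe sets on both mock arrays. The third set, the only one of the 3 whose name does not mark it as able to bind related transcripts, read 870.0 and 898 in mock and 524 and 681 in ABA shoots. Its groups did not overlap either, but its ABA arrays lay far apart, and its log2 change of -0.55 (SE 0.16) did not pass (limma adjusted p = 0.117). That value rests on which ABA array is used, with -0.74 without ABA replicate 2 and -0.37 without ABA replicate 1. The 3 probe sets thus gave lower ABA signals throughout, with sizes from -0.55 to -0.88.

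SBPASE read 1468 and 1633 on the mock arrays and 915 and 933 on the ABA arrays. The mock arrays differed more from each other than the ABA arrays did, and the groups stayed well apart, with pairings of 56.0% to 63.5%. Its mean went from 1550.5 ± 116 to 924 ± 13.0 (SD, n = 2 each), a log2 change of -0.74 (SE 0.068, limma adjusted p = 0.0254).

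PRK read 1367 and 1484 in mock and 809 and 909 in ABA shoots. This was the widest spread in relation to the change among the 4 genes, though without overlap, and pairings ran from 54.5% to 66.5%. The mean went from 1426 ± 82.4 to 859 ± 71.0 (SD, n = 2 each), a log2 change of -0.72 (SE 0.088, limma adjusted p = 0.0338).

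ATPC1 read 1605 and 1594 in mock and 1158 and 1211 in ABA shoots. Its replicates were the tightest of the 4 genes in mock, and pairings ran from 72.1% to 75.9%. The mean went from 1599 ± 7.54 to 1184 ± 37.4 (SD, n = 2 each), a log2 change of -0.43 (SE 0.033, limma adjusted p = 0.0217).

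**Figure D1:**
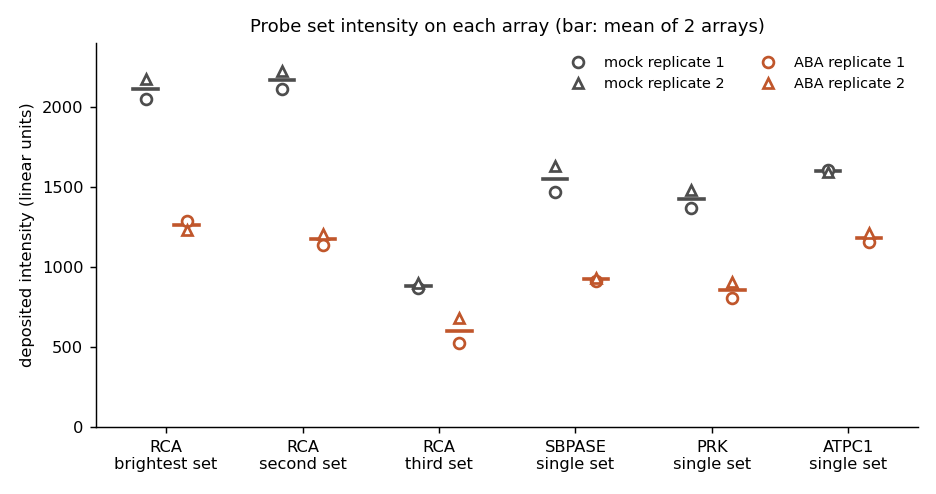
Deposited intensity (linear units) of each of the 6 probe sets of RCA, SBPASE, PRK and ATPC1 on each array, with mock in grey, ABA in orange, circles for replicate 1, triangles for replicate 2 and bars for the mean of 2 arrays. In every probe set both ABA arrays lie below both mock arrays, and the third RCA set shows the widest gap between ABA arrays (524 and 681). Both ABA arrays also lie below both mock arrays in 50.8% of all probe sets and 75.1% of the brightest 1000.

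The position of each probe set among all others on its own array depends on no scaling or added constant. The brightest RCA set ranked 2 on both mock arrays, and 22 and 29 on the ABA arrays. SBPASE went from ranks 28 and 21 to 90 and 87. PRK moved furthest, from ranks 36 and 34 to 146 and 98, and ATPC1 least, from 19 and 27 to 41 and 30. Every one of the 4 genes therefore ranked lower on both ABA arrays than on either mock array. For ATPC1 the rank of 30 on ABA replicate 2 was close to that of 27 on mock replicate 2. The share of equally bright probe sets that also lost rank was not counted, and a set near the top has little room to rise.

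The difference between ATPC1 and the other genes was examined through the log2 ratio of each pair of genes within each array, for 6 pairs. RCA over ATPC1 was 0.35 and 0.44 on the mock arrays and 0.15 and 0.023 on the ABA arrays. SBPASE over ATPC1 was -0.13 and 0.034 in mock and -0.33 and -0.37 in ABA shoots, and PRK over ATPC1 was -0.23 and -0.10 in mock and -0.51 and -0.41 in ABA shoots. In these 3 pairs the groups did not overlap, and the ratio shifted by -0.31, -0.31 and -0.29. A two-sided exact permutation test gave p = 0.333 for each, the smallest value this test can give with 2 arrays against 2, and an adjusted p of 0.667 over 6 pairs. The exact test could therefore not pass whatever the ratios were, and its p says nothing for or against a difference between ATPC1 and the others. Among RCA, SBPASE and PRK the ratios overlapped between groups and shifted by -0.014 to -0.00027.

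Most bright probe sets read lower on the ABA arrays, with a median log2 change of -0.32 among the brightest 1000 and -0.13 over all probe sets. Each gene was therefore set against the 100 probe sets on either side of it in mean log2 signal, fewer on the brighter side because the ranking ends there, and with probe sets of the same gene left out. RCA, with 10 brighter and 100 dimmer neighbours, lay at -0.44 relative to the neighbours' median of -0.30 (5th to 95th percentile -0.68 to 0.044), and 1 of 110 neighbours, a probe set unnamed here, fell further. For SBPASE the neighbours' median was -0.30 and 3 of 146 fell further, 2 of them probe sets of RCA. For PRK the median was -0.30 and 6 of 157 fell further, among them 2 of RCA and that of SBPASE. ATPC1 was close to its neighbours, at -0.43 against a median of -0.31, and 32 of 124 neighbours (25.8%) had a more negative change.

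The share of neighbours called lower was 36.4%, 34.9%, 35.7% and 37.9% for RCA, SBPASE, PRK and ATPC1 in that order. With the median of the neighbours subtracted array by array, RCA stood at 0.73 and 0.76 on the mock arrays and at 0.38 and 0.29 on the ABA arrays. SBPASE stood at 0.34 and 0.43 in mock against -0.0087 and 0.015 in ABA shoots, and PRK at 0.28 and 0.31 against -0.17 and -0.0045. ATPC1 stood at 0.40 and 0.35 against 0.27 and 0.32, the smallest gap between groups among the 4 genes. These values describe the arrays and carry no test.

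**Figure D2:**
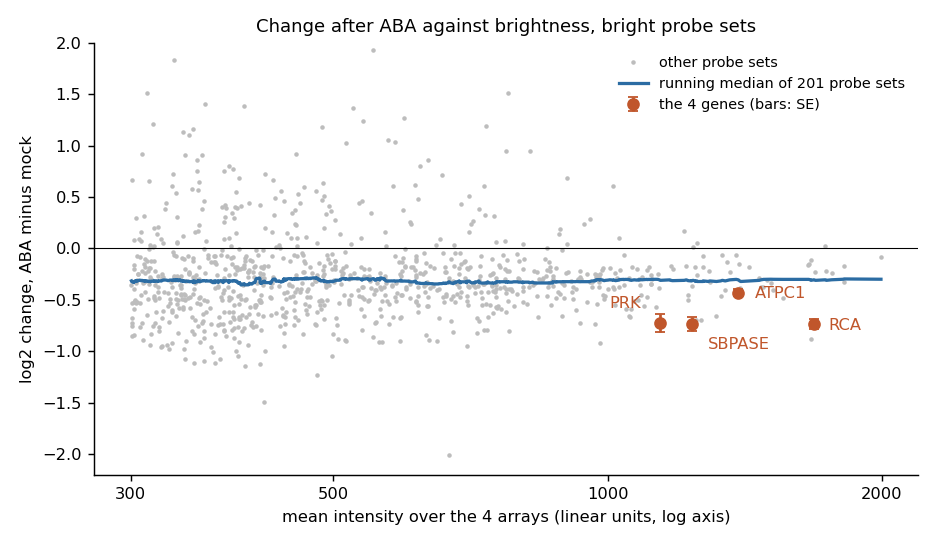
Log2 change (ABA minus mock) against mean intensity (linear units on a log axis) for the 964 probe sets above 300 intensity units, with a running median in blue, and RCA, SBPASE, PRK and ATPC1 in orange with their SE. The blue line stays near -0.3, ATPC1 lies just under it at -0.43, and the other 3 genes lie between -0.72 and -0.74. The vertical axis leaves out 18 probe sets with larger changes.

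The array-wide shift also bears on the calls. Cyclic loess normalization fits the trend with brightness between arrays and removes it. After it RCA (-0.45, limma adjusted p = 0.0278) and SBPASE (-0.44, limma adjusted p = 0.0297) remained past the threshold, PRK kept its direction without passing (-0.42, limma adjusted p = 0.0628), and ATPC1 did not pass (-0.13, limma adjusted p = 0.269). Of all probe sets 4.91% were then called lower and 7.2% higher, and 8.1% of the brightest 1000 were called lower. Quantile normalization gave the same division, with changes of -0.52, -0.47, -0.48 and -0.13 for RCA, SBPASE, PRK and ATPC1, where 5.24% of all probe sets were called lower and 4.62% higher, and 10.1% of the brightest 1000 were called lower. Median centring kept RCA, SBPASE and PRK past the threshold and not ATPC1, with 12.5% of all probe sets called lower and 9.69% higher. With 9 spiked control sets as the yardstick all 4 changes were larger, from -0.90 to -1.21, and 41.7% of all probe sets were called lower and 2.71% higher. These spiked sets, for BioB, BioC, BioDn and CreX, read higher on the ABA arrays, by a median of 0.55 (log2 ratio, range 0.11 to 0.74). Whether they track the amount of RNA per shoot was not tested, so the larger changes are no absolute measure of loss.

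**Figure D3:**
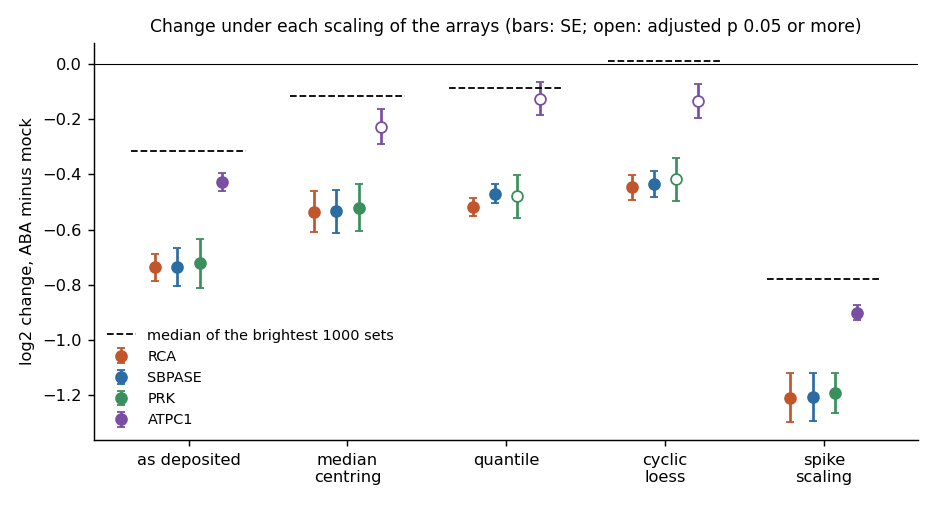
Log2 change (ABA minus mock, bars are SE) of RCA, SBPASE, PRK and ATPC1 under each scaling of the 4 arrays, with open symbols where the limma adjusted p was 0.05 or more and dashed lines at the median of the brightest 1000 probe sets. RCA, SBPASE and PRK stay together and below the dashed line under each scaling, while ATPC1 lies closer to it, at -0.13 after quantile or cyclic loess normalization.

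Genes of the same pathways were read from lists of loci, of which only part were named here. A probe set annotated to more than 1 gene was left unnamed, so loci with only such sets are missing. Over the lists for carbon fixation, photorespiration (which also runs in peroxisomes and mitochondria), ATP synthesis, thioredoxins and thylakoids, 32 of 144 loci besides the 4 genes were named. Of these 15 fell, 0 rose and 17 did not pass, against 19.6% lower over all probe sets and 35.2% lower among the brightest 1000. Their median log2 change was -0.38. Both ABA arrays lay below both mock arrays for 30 of these 32, against 50.8% of all probe sets and 75.1% of the brightest 1000. After cyclic loess 5 fell and 1 rose, against 4.91% lower and 7.2% higher over all probe sets and 8.1% lower among the brightest 1000, with a median of -0.076. Loci that the reference tables leave without a name are given by code alone, and their place on a list rests on the code.

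Of 13 loci listed for the activation and assembly of Rubisco, 6 were named and 5 fell, RCA included. The shares called lower were 19.6% over all probe sets and 35.2% among the brightest 1000. LSMT-L, a lysine methyltransferase-like gene, was placed on this list, but no action of it on Rubisco was tested here. It read 111 and 128 in mock and 49.2 and 60.2 after ABA (a change, in log2, of -0.94, SE 0.12, limma adjusted p = 0.0367). AT3G04550 fell by 0.87, AT5G28500 by 0.75 and AT5G51110 by 0.37, and AT3G47650 was at -0.33 without passing. After cyclic loess AT3G04550 stayed past the threshold (-0.52), while LSMT-L (-0.55), AT5G28500 (-0.41) and AT5G51110 (-0.043) did not pass, so that 1 of the 4 calls besides RCA was left, as under quantile normalization. Median centring also ended the call of AT5G51110, at -0.17. Among the genes named from the lists, the probe sets of LSMT-L, AT5G28500, AT1G80380, LHCB1.5, LHCB4.1, LHCB4.2, CURT1D, TROL, GAPC2 and AT3G01850 may, by their names, also pick up related transcripts.

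Of 21 Calvin cycle loci, 3 were named. SBPASE and PRK fell, and AT5G64380 read 44.4 and 46.4 in mock against 24.8 and 11.3 in ABA shoots without passing (log2 change -0.88, SE 0.25, limma adjusted p = 0.114). The Rubisco small subunit genes on this list were not analysed here. Photorespiration, which recovers carbon from the oxygenation reaction of Rubisco, had 3 of 14 loci named and 3 of them fell. For comparison, 19.6% of all probe sets and 35.2% of the brightest 1000 were called lower. HPR1, which encodes the peroxisomal hydroxypyruvate reductase of that pathway, went from 1295 ± 90.6 to 818 ± 25.0 (SD, n = 2 each; log2 change -0.65), AT1G11860 fell by 0.69 and AT1G80380 by 0.75. After cyclic loess HPR1 (-0.35) and AT1G11860 (-0.39) stayed past the threshold and AT1G80380 (-0.41) did not pass. Under quantile normalization only AT1G11860 of the 3 passed, with HPR1 at -0.42 and AT1G80380 at -0.52.

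Of the chloroplast ATP synthase list, 2 of 5 loci were named. ATPC2, the second gamma subunit gene, read 14.7 and 24.6 in mock and 13.0 and 15.7 in ABA shoots, with overlapping groups at a low signal (log2 change -0.22, limma adjusted p = 0.482). Its change was -0.021 without mock replicate 2 and -0.42 without mock replicate 1. For comparison, 2 of 8 loci of the mitochondrial ATP synthase were named: AT5G47030 fell by 0.40, and AT1G51650 was at 0.063 with overlapping groups. After cyclic loess AT5G47030 was at -0.072 and did not pass, and AT1G51650 was called higher, at 0.41 (limma adjusted p = 0.0355). AT1G51650 was at 0.29 under quantile normalization, 0.26 under median centring and -0.39 under spike scaling, none past the threshold.

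Thioredoxins and the enzymes that reduce them act upstream of SBPASE, PRK and ATPC1. The list for this system also holds ferredoxins and peroxiredoxins. Of its 18 loci 5 were named and 1 fell, against 19.6% called lower over all probe sets. This was AT3G11630, which was not listed among the thioredoxins (log2 change -0.44, limma adjusted p = 0.0499, at the edge of the threshold). Its call was lost after cyclic loess (-0.099), quantile normalization (-0.21) and median centring (-0.24). TRXX, which encodes thioredoxin x, was at -0.35 and TRXY1, a y-type thioredoxin gene, at -0.26 (-0.16 without ABA replicate 1), neither past the threshold. TRXM2, which encodes an m-type thioredoxin, read 1133 and 1129 in mock and 1083 and 915 in ABA shoots, which gave -0.18 (log2) without passing, and it was above 0 after cyclic loess (0.12), quantile normalization (0.070) and median centring (0.020). Its change was -0.061 without ABA replicate 2 and -0.30 without ABA replicate 1. Among the other targets of thioredoxin, NADP-MDH, the chloroplast malate dehydrogenase that exports reducing power, fell from 622 ± 7.15 to 446 ± 26.6 (SD, n = 2 each; log2 change -0.47). It did not pass after cyclic loess (-0.14), quantile normalization (-0.26) or median centring (-0.27). The mitochondrial thioredoxin gene TRXO1 fell by 0.47, with -0.085 and no call after cyclic loess, and TRXO2 was at -0.36 without passing (-0.23 without mock replicate 1).

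The thylakoid genes gave a range of changes. Of 30 loci for photosystems and electron transport 5 were named, and 0 passed the test with 5 below 0, at -0.17 to -0.38. At an unadjusted p under 0.05 in limma 3 of these 5 were lower, as were 33.3% of all probe sets and 58.8% of the brightest 1000. PSAE1, a photosystem I subunit gene, was at -0.23, PSAN, another, at -0.25 and PSBY, of photosystem II, at -0.38. After cyclic loess PSAE1 and PSAN were at 0.058 and 0.048. Of 20 light-harvesting loci 4 were named and 3 fell, namely LHCB4.3 (-1.05), LHCB4.2 (-0.38) and LHCB4.1 (-0.37), while LHCB1.5 was at 0.17 without passing. At the same adjusted threshold 19.6% of all probe sets and 35.2% of the brightest 1000 were called lower. The other probe sets of LHCB1.5 were at 0.23 and 0.43, neither past the threshold. After cyclic loess these 3 calls were lost, with LHCB4.3 at -0.71 (limma adjusted p = 0.0522), LHCB4.2 at -0.073 and LHCB4.1 at -0.079. LHCB4.2 and LHCB4.1 also lost their calls under quantile normalization (-0.11 and -0.055), median centring (-0.18 and -0.17) and a fit with an intensity trend, and LHCB4.3 under quantile normalization (-0.83). LHCB1.5 was called higher after cyclic loess (0.47, limma adjusted p = 0.0331) and median centring (0.37, limma adjusted p = 0.0485), and was at 0.48 under quantile normalization and -0.31 under spike scaling without passing.

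Set side by side, 9 genes of the Rubisco, Calvin cycle and photorespiration lists besides RCA, SBPASE and PRK had a median of -0.75, with 7 lower. The 9 of the photosystem and light-harvesting lists had a median of -0.25, with 3 lower, and 7 other thylakoid genes had a median of -0.47 with 3 lower. Of all probe sets 19.6% were called lower, and of the brightest 1000, 35.2%. After cyclic loess the medians were -0.41, 0.048 and -0.11, with 3, 0 and 2 genes lower and 0, 1 and 0 higher. In that setting 4.91% of all probe sets were called lower and 7.2% higher, and 8.1% of the brightest 1000 were called lower. This grouping was made after the values had been seen and carries no test, and the ranges overlap, from -0.94 to -0.33, from -1.05 to 0.17 and from -0.85 to -0.13 in that order.

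**Figure D4:**
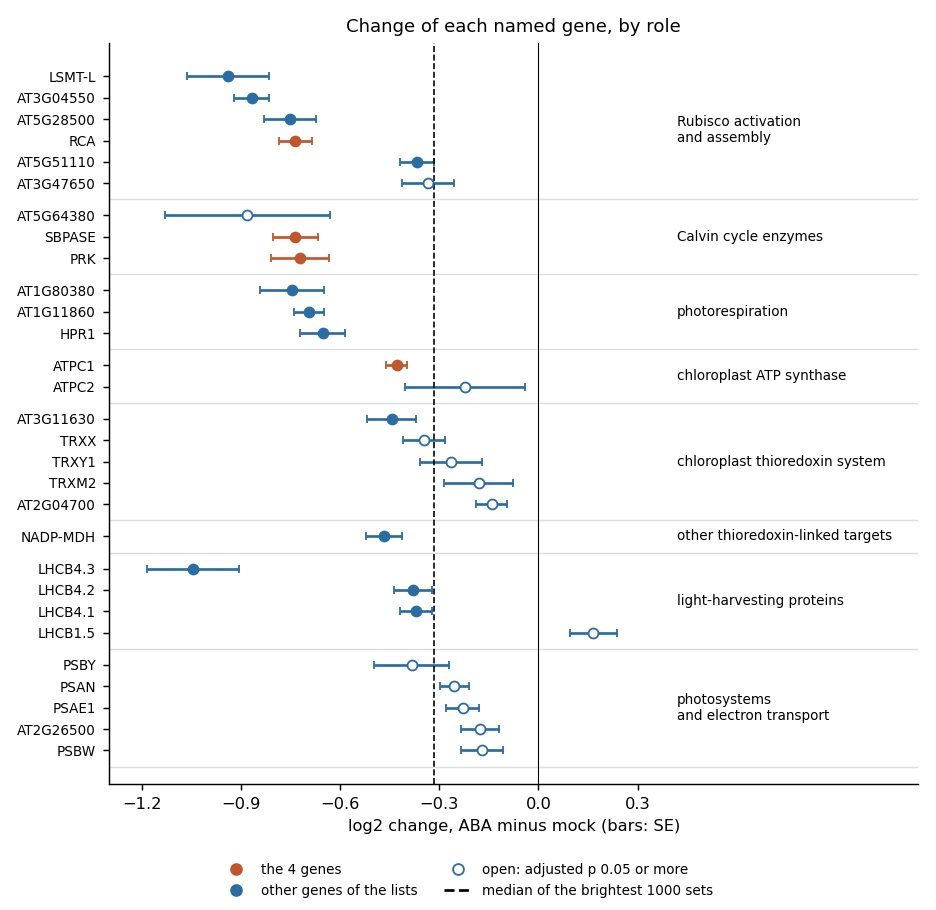
Log2 change (ABA minus mock, bars are SE) of each named gene on the chloroplast lists except that of other thylakoid proteins, grouped by role, with RCA, SBPASE, PRK and ATPC1 in orange, open symbols where the limma adjusted p was 0.05 or more, and a dashed line at the median of the brightest 1000 probe sets (-0.32). The 7 other thylakoid genes, with a median of -0.47, are not shown. Genes of Rubisco activation, the Calvin cycle and photorespiration lie mostly left of the line, and photosystem genes lie near it or to its right except PSBY at -0.38. Of the light-harvesting genes, LHCB4.3 (-1.05), LHCB4.2 (-0.38) and LHCB4.1 (-0.37) lie left of the line and LHCB1.5 (0.17) lies to its right.

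Of a further 7 thylakoid genes found through their names in the annotation, 3 fell: CURT1D (-0.85), PAM68, of photosystem assembly (-0.67), and NDHN, a subunit of the chloroplast NDH complex (-0.66). The array-wide shares called lower were 19.6% of all probe sets and 35.2% of the brightest 1000. TAPX, the thylakoid ascorbate peroxidase gene, was at -0.47, TROL at -0.27 and TAAC at -0.25, none past the threshold, and after cyclic loess TROL and TAAC were at 0.065 and 0.13. TAAC was at -0.063 without ABA replicate 2 and -0.44 without ABA replicate 1. CURT1D and NDHN stayed past the threshold after cyclic loess (-0.50 and -0.32), and PAM68 did not pass (-0.29). Cytosolic counterparts of Calvin cycle enzymes had 4 of 14 loci named, and 0 passed in limma, with 3 lower at an unadjusted p under 0.05, against 33.3% of all probe sets. GAPC2, a glycolytic glyceraldehyde-3-phosphate dehydrogenase gene, read 382 and 327 in mock and 166 and 226 after ABA (a change, in log2, of -0.82, SE 0.20, limma adjusted p = 0.0881). CTIMC, a cytosolic triosephosphate isomerase gene, was at -0.18. AT3G01850 and AT1G63290 were at -0.38 and -0.19, and the latter was above 0 after cyclic loess, quantile normalization and median centring and ran from -0.32 to -0.054 with 1 array left out. Lists for starch synthesis (6 loci) and for regulators of photosynthesis genes (9 loci) had 0 named members.

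The named genes with the most similar course over the 4 arrays were found among 1466 others with a mean intensity of at least 100, by the root mean square difference of log2 values centred on each gene's own mean. Nearest to RCA were AT4G13780, AT2G17240 and AT4G22380, at 0.0043 to 0.022. Nearest to SBPASE were AT5G22440, AT3G10610 and AT3G06950, at 0.0075 to 0.019. Nearest to PRK were AT2G16940, GSA1 and HEME2, at 0.018 to 0.020. GSA1 encodes a glutamate-1-semialdehyde aminomutase and HEME2 a uroporphyrinogen decarboxylase. Nearest to ATPC1 were AT2G43770, TUB6, a beta tubulin gene, and FTSZ2-1, a plastid division gene, at 0.011 to 0.018. SBPASE ranked 21 by nearness to RCA and PRK ranked 130, while ATPC1 ranked 481. These distances rest on 4 arrays in 2 groups and describe the arrays alone.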

How the data were processed

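Each array gave 1 intensity per probe set on a linear scale, as deposited by the authors. The authors' background correction, array scaling and software are, in the sources used here, not given. No genome build is named, so no coordinates are printed. Of 19658 probe sets, 287 control sets were left out. Names were taken from GEO's platform annotation and updated through RefSeq's gene table: 11598 tested probe sets had 1 gene name and 7773 are unnamed here. A set that the annotation gives to more than 1 gene was left unnamed.

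Values below 0 were replaced by 0 and transformed as log2(intensity + 16). Log2 changes are on this scale, which understates changes of dim probe sets. limma 3.58.1 in R 4.3.3 (lmFit, eBayes, two-sided) was fitted across all 19371 probe sets with Benjamini-Hochberg adjustment and a threshold of 0.05. The fit was tested on simulated data with independent noise and no array-wide shift, so that test does not cover the effect of array scaling on the calls. Alternatives were other added constants (1 and 64), array scalings, a filter at the 40th percentile, an intensity trend, a replicate block and each array left out. The replicates are biological per the labels, and 2 arrays per group limit the precision.

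From each list, up to 5 genes past the threshold with the largest change were to be named, then up to 3 others above noise; for each of the 4 genes, the 3 nearest in pattern were named. The 4 genes and the lists were chosen with earlier results of these data known, and the lists of other thylakoid proteins and of mitochondrial thioredoxins were added once the annotation was known. A gene on 2 lists is counted in both.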

Additional observations from a re-analysis of the deposited data

How the results depend on the processing

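The direction of RCA, SBPASE, PRK and ATPC1 was the same under every alternative run. The size moved with the array scaling, for ATPC1 from -0.13 to -0.90, and the precision is limited by 2 arrays per group. Under quantile normalization and cyclic loess PRK did not pass, at -0.48 and -0.42, and ATPC1 did not pass there or under median centring, at -0.13, -0.13 and -0.23, so that 2 of the 4 genes were called under the former settings and 3 under the latter. The least bright RCA probe set was at -0.55 (limma adjusted p = 0.117). Leaving out each array in turn, the changes were -0.78 to -0.69 for RCA, -0.81 to -0.66 for SBPASE, -0.80 to -0.64 for PRK and -0.46 to -0.40 for ATPC1. In each such fit 0 probe sets, 0 of the 4 genes and 0 list genes were called, with 5780 to 6459 probe sets at an unadjusted p under 0.05 in limma; the lone array is assumed to vary like the other group. The replicate numbers are not said to pair the arrays, and deviations of same-numbered arrays correlated at 0.039. With the replicate block the changes were -0.74, -0.74, -0.72 and -0.43 (limma adjusted p 0.0749, 0.0733, 0.0733 and 0.0755), and all counts of calls were 0, with 7115 probe sets at an unadjusted p under 0.05. As deposited 4574 probe sets were called, 3805 lower and 769 higher. Calls numbered 1911 (1016 lower, 895 higher) under quantile normalization and 2347 (952 lower, 1395 higher) under cyclic loess. Median centring gave 2424 lower and 1878 higher, and spike scaling 8610 (8085 lower, 525 higher). With the filter on dim probe sets 6872 (5809 lower) of 11622 tested were called, whereas the other settings tested 19371. List genes called went from 15 to 4, 5 and 27 under quantile normalization, cyclic loess and spike scaling. Leaving out 1 array also moved LHCB1.5 to 0.10 (without mock replicate 1) and AT1G51650 to between 0.015 and 0.11. Single genes changed sign under scalings. Under cyclic loess ATPC2 was at 0.044, TRXM2 at 0.12, PSAE1 at 0.058, PSAN at 0.048, AT1G63290 at 0.20, TAAC at 0.13, TROL at 0.065 and TRXO2 at 0.020. Under quantile normalization TRXM2 was at 0.070, PSAE1 at 0.0073, PSAN at 0.0069, AT1G63290 at 0.097 and TAAC at 0.020. Under median centring TRXM2 was at 0.020 and AT1G63290 at 0.013, and under spike scaling LHCB1.5 was at -0.31 and AT1G51650 at -0.39. The cause of these shifts was not tested.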
